A study of Mus musculus with 10 samples.

Results

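The genes described here are 9 mouse genes of antigen presentation by major histocompatibility complex (MHC) class II, namely Ciita, H2-Aa, H2-Ab1, H2-Eb1, Cd74, Ctss, H2-DMa, H2-DMb1 and the integrin gene Itgax. They were chosen by symbol, through the RefSeq accession that the array files give for each probe. The arrays held 22911 genes that could be named in this way, of which 14645 were bright enough to be tested, and all 9 genes were among them, with 12 of their 14 probes tested. The samples were total RNA from the right ventricle (RV, 4 arrays), the left ventricle (LV, 3 arrays) and the ventricular septum (3 arrays) of C57BL/6N mice. No genetic change, operation or drug is named for any of these samples, and their age and sex are not given in the sources used here. Each array carried Cy3-labelled RNA on an Agilent SurePrint mouse chip.

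MHC class II molecules are pairs of an α and a β chain that carry peptides from engulfed proteins to the surface of dendritic cells, macrophages and B cells, where CD4+ T cells read them. The coactivator CIITA, which is induced by interferon gamma, switches on the class II genes together with factors bound to conserved X and Y boxes in their promoters. The invariant chain CD74 holds the groove of new class II molecules, the protease cathepsin S cuts it down to a short remnant, and H2-DM exchanges this remnant for peptide. In the heart, class II is carried by part of the resident macrophages, by dendritic cells and by B cells. Since these were pieces of whole tissue, fewer cells of a type and less RNA per cell cannot be told apart in any of the values.

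The promoter stretches that hold an X-like and a Y-like core are shown here as sequence. Their bearing on the levels of the genes was not tested. Promoter windows of 300 bases (250 before and 50 after the annotated start) were given for 6 of the 9 genes by RefSeq on GRCm38.p6. H2-Ab1, Ciita and Cd74 were without a window. The letters searched were GNNACNNNT for the X core and ATTGG for the Y core (an inverted CCAAT), on both strands, with the Y core starting 25 to 40 bases after the X core. This pair was found in H2-DMb1 and H2-Eb1, but not in the windows of H2-DMa, H2-Aa, Ctss and Itgax. Of the 32851 windows of all genes, 2.04% held it. The Y core alone was found in windows of 5 of the 6 genes and in 37.4% of all windows. H2-Aa is given beside them because it encodes the α chain of a class II molecule and holds the Y core without an X core of exactly these letters. Its stretch holds gcaactttg, which differs from the X letters in its last base alone. The search allowed no other letters, so it does not show that H2-Aa lacks an X box. Capitals mark the matched cores.
H2-DMb1 (chr17:34153087-34153141, plus strand): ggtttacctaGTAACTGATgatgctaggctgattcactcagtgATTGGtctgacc
H2-Eb1 (chr17:34305766-34305819, plus strand): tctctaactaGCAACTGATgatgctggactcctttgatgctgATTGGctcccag
H2-Aa (chr17:34287860-34287913, minus strand): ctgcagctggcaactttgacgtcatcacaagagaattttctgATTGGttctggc

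The X core began 94 bases before the start of H2-DMb1 and 91 bases before that of H2-Eb1, with the Y core 33 and 32 bases further on. The Y core of H2-Aa began 48 bases before its start. A match of letters is a description of the sequence and not a measured binding site.

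All levels are given as log2 of the processed signal minus the 75th percentile of that array, and 0 thus marks a probe at this percentile. For a gene with several probes the value is that of its brightest probe, and levels of different genes are not set against each other because probes differ in brightness. The arrays lay on 2 slides. Slide 1 held arrays 1 and 2 of each region, and slide 2 held RV arrays 3 and 4, LV array 3 and septum array 3. Between 53.7% and 64.0% of the spots of an array stood well above background, and no spot was saturated. With slide in the model beside region, 43.8% of all probes tested differed between the slides, so values by slide are given for the genes.

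Against the LV, 1 of the 9 genes passed the test (adjusted p under 0.05, limma), and this was Itgax, which was higher in the RV. Its probe entered the test through the RV alone (well above background on 4 of 4 RV, 1 of 3 LV and 2 of 3 septum arrays), so a higher RV value was built into its entry and the count is a description. This share compares with 3.86% of all 30234 probes tested. Every gene had a higher mean in the RV than in the LV, by 0.25 to 1.29 on the log2 scale with a median of 0.31, while the median of all genes tested was -0.05. Against the septum, the differences lay between 0.20 and 0.53 (median 0.27). None of the 9 genes passed there, so 0 of 9, beside 2.08% of all probes tested. At an unadjusted p under 0.05, 4 genes passed against the LV, beside 5992 of the 30234 probes, and 1 passed against the septum, beside 4249. Between septum and LV, 0 of the 9 genes passed, beside 0% of all probes tested, and 1 gene and 862 probes had an unadjusted p under 0.05. A one-way analysis of variance, the test named in the methods, called 0 of the 9 genes in each of these comparisons. Over the 3 regions together (F test of limma), Itgax was the gene that passed, with an adjusted p of 0.0269, beside 2.78% of all probes. With the replicate number as a block this became 0.0564 and without a filter on dim probes 0.121, and with single arrays left out it ran from 0.0158 to 0.0962, above the threshold without RV array 1, 3 or 4 or any 1 LV array.

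**Figure D1:**
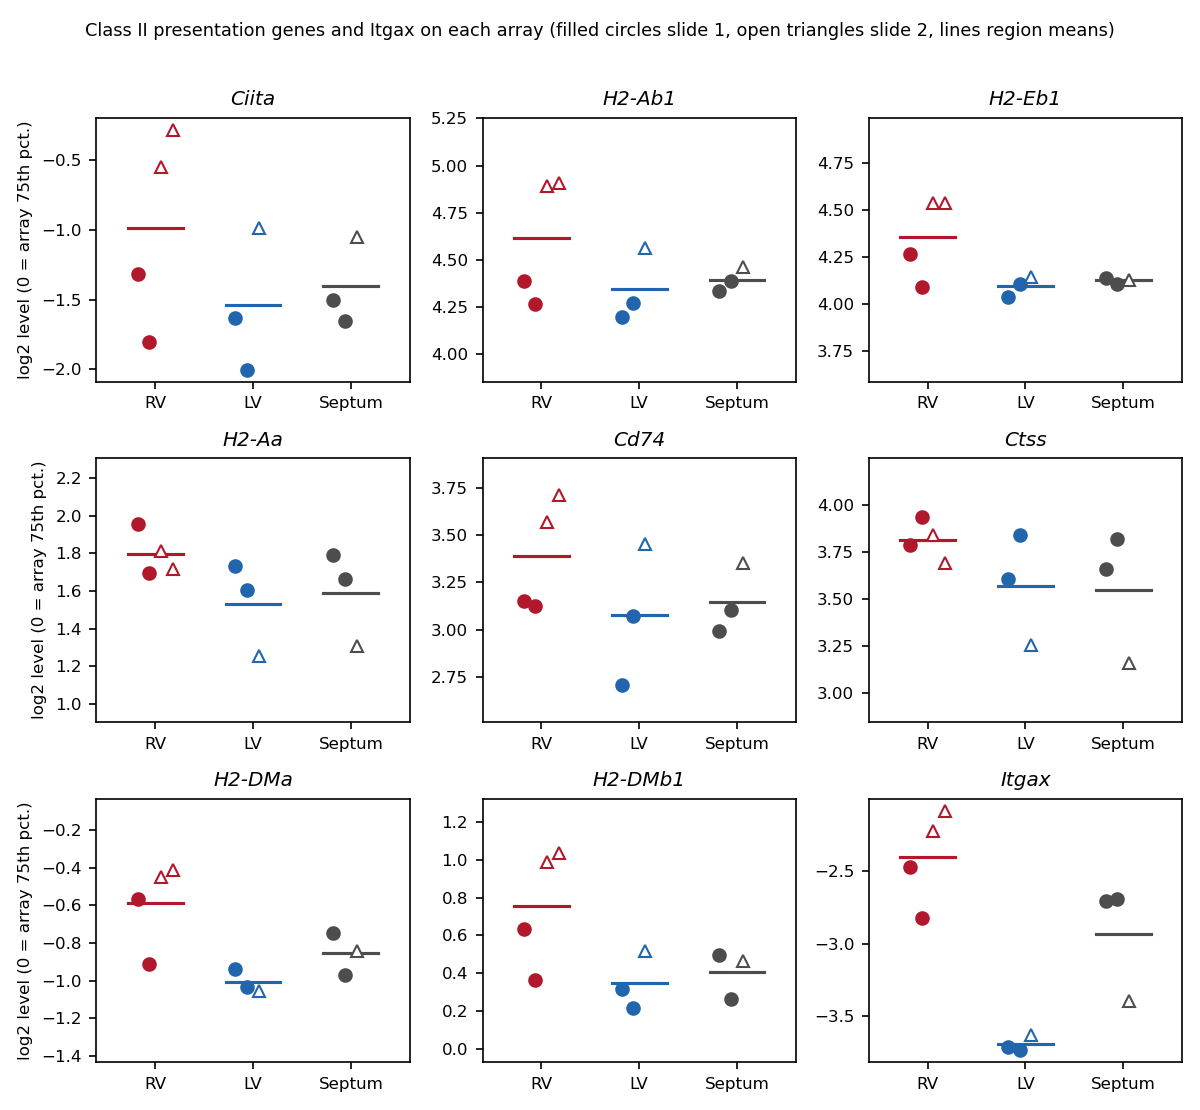
Level of each gene on each array, as log2 of the processed signal relative to the 75th percentile of the array, by region; filled circles are slide 1, open triangles slide 2 and lines the region means. The RV and LV arrays do not overlap for H2-DMa and Itgax, and the triangles lie above the circles within the RV for all genes but H2-Aa and Ctss.

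Ciita encodes the coactivator on which the other class II genes depend. Its levels on RV arrays 1 to 4 were -1.32, -1.80, -0.55 and -0.28, on LV arrays 1 to 3 they were -1.63, -2.002 and -0.98, and on septum arrays 1 to 3 they were -1.50, -1.65 and -1.05. The regions overlapped, and in each region the slide 2 arrays were the highest. The RV exceeded the LV by 0.55 (SE 0.37, adjusted p = 0.469) and the septum by 0.41 (SE 0.37, adjusted p = 0.705). Ciita had the widest interval of the 9 genes in these comparisons, from -0.29 to 1.39 against the LV at 95% confidence. Between the slides it differed by 0.88 (SE 0.15, adjusted p = 0.00213, higher on slide 2), more than between any regions. With slide as a block the RV to LV difference was 0.40 with an SE of 0.17 (adjusted p = 0.138). With arrays left out in turn the difference to the LV lay between 0.315 (without RV array 4) and 0.828 (without LV array 3), and that to the septum between 0.179 (without RV array 4) and 0.686 (without RV array 2). A dimmer probe of Ciita was well above background on 2 of the 10 arrays and was not tested.

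H2-Ab1 encodes the β chain of the H2-A molecule. It measured 4.39, 4.27, 4.89 and 4.91 on the RV arrays, 4.20, 4.27 and 4.56 on the LV arrays, and 4.33, 4.39 and 4.46 on the septum arrays. RV arrays 3 and 4 were above all other arrays, while RV array 2 lay among the LV and septum arrays. The RV mean exceeded the LV mean by 0.27 (SE 0.17, adjusted p = 0.436) and the septum mean by 0.22 (SE 0.17, adjusted p = 0.645). All 4 probes of H2-Ab1 were tested, and they gave differences of 0.25 to 0.30 against the LV and of 0.19 to 0.30 against the septum. On slide 1 the RV and septum differed by -0.03, and on slide 2 by 0.44. Without RV array 3 the difference to the LV was 0.177, and without RV array 4 it was 0.171. That to the septum was 0.127 and 0.121 without these arrays and 0.335 without RV array 2. None of these probes passed the test in any comparison of regions.

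H2-Aa encodes the α chain that pairs with it. Its levels were 1.95, 1.69, 1.81 and 1.71 in the RV, 1.73, 1.61 and 1.25 in the LV, and 1.79, 1.67 and 1.31 in the septum. The lowest values were those of LV array 3 and septum array 3, the opposite of H2-Ab1, for which these were the highest arrays of their regions. The RV exceeded the LV by 0.26 (SE 0.15, adjusted p = 0.369) and the septum by 0.20 (SE 0.15, adjusted p = 0.603). Without LV array 3 the difference to the LV was 0.12, and without septum array 3 that to the septum was 0.065. The slide difference of H2-Aa was -0.26 (SE 0.09, adjusted p = 0.0396, lower on slide 2), whereas that of H2-Ab1 was 0.37 (SE 0.08, adjusted p = 0.00718, higher on slide 2).

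H2-Eb1 encodes the β chain of the H2-E molecule. C57BL/6 mice carry a defect in the gene of its α partner and show no H2-E at the cell surface, but they still transcribe H2-Eb1. The levels were 4.27, 4.09, 4.54 and 4.54 in the RV, 4.04, 4.11 and 4.14 in the LV, and 4.14, 4.11 and 4.13 in the septum. The LV and septum arrays spanned 0.103 in all, and 3 of the 4 RV arrays were above all of them. The difference to the LV was 0.26 (SE 0.11) with an unadjusted p of 0.0436 and an adjusted p of 0.235. The difference to the septum was 0.23 (SE 0.11, adjusted p = 0.403).

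Cd74 encodes the invariant chain. It measured 3.15, 3.13, 3.57 and 3.71 in the RV, 2.70, 3.07 and 3.45 in the LV, and 2.99, 3.10 and 3.35 in the septum. The slide 2 arrays were the highest of every region, and the regions overlapped. Cd74 in the RV exceeded the LV by 0.31 (SE 0.20, adjusted p = 0.444) and the septum by 0.24 (SE 0.20, adjusted p = 0.679). Its difference to the LV was 0.128 without LV array 1, 0.206 without RV array 4 and 0.503 without LV array 3, and that to the septum was 0.134 without RV array 4. Cd74 was 0.46 higher on slide 2 (SE 0.08, adjusted p = 0.00305), which is larger than its differences between regions. It was the only gene of the 9 whose RV to LV difference was smaller on slide 2 (0.19) than on slide 1 (0.25).

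Ctss encodes cathepsin S, which trims the invariant chain. Its levels were 3.79, 3.93, 3.84 and 3.69 in the RV, 3.61, 3.84 and 3.26 in the LV, and 3.66, 3.82 and 3.16 in the septum. As for H2-Aa, LV array 3 and septum array 3 were the lowest of all arrays, and the others overlapped across regions. Ctss in the RV exceeded the LV by 0.25 (SE 0.18, adjusted p = 0.494) and the septum by 0.27 (SE 0.18, adjusted p = 0.562). For Ctss the difference to the LV was 0.09 without LV array 3 and 0.385 without LV array 2, and that to the septum was 0.07 without septum array 3 and 0.404 without septum array 2. Ctss was lower on slide 2, by 0.34 with an SE of 0.10 (slide difference -0.34, adjusted p = 0.0254).

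H2-DMa and H2-DMb1 encode the chains of the peptide exchange factor H2-DM. H2-DMa measured -0.57, -0.91, -0.45 and -0.42 in the RV, -0.94, -1.03 and -1.05 in the LV, and -0.74, -0.97 and -0.84 in the septum. Every RV array was above every LV array, by 0.03 at the nearest. Such a separation was found for H2-DMa and Itgax among the 9 genes, and for 8.1% of all probes tested. The RV exceeded the LV by 0.42 (SE 0.12, 95% interval 0.15 to 0.70), with an unadjusted p of 0.00673 and an adjusted p of 0.0918, so the gene did not pass over all probes. With the replicate number as a block, which leaves RV array 4 without a partner and so takes it out of the difference, the value was 0.36 (SE 0.09, adjusted p = 0.0497). With slide as a block it was 0.40 (SE 0.11, adjusted p = 0.0425), and without RV array 2 it was 0.53 (adjusted p = 0.0268). These blocks also raised the number of probes called, to 4512 and 5331 of the 30234, from 1167 without a block. The septum differed from the RV by 0.27 (SE 0.12, adjusted p = 0.374).

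H2-DMb1 measured 0.63, 0.36, 0.99 and 1.04 in the RV, 0.31, 0.21 and 0.52 in the LV, and 0.50, 0.26 and 0.46 in the septum. The RV arrays overlapped both other regions through RV array 2. The difference to the LV was 0.41 (SE 0.16, adjusted p = 0.210), and it passed when the replicate number was a random block (0.35, adjusted p = 0.0490). That setting called 5795 of the 30234 probes. The difference to the septum was 0.35 (SE 0.16, adjusted p = 0.388), and no setting brought it past the threshold.

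**Figure D2:**
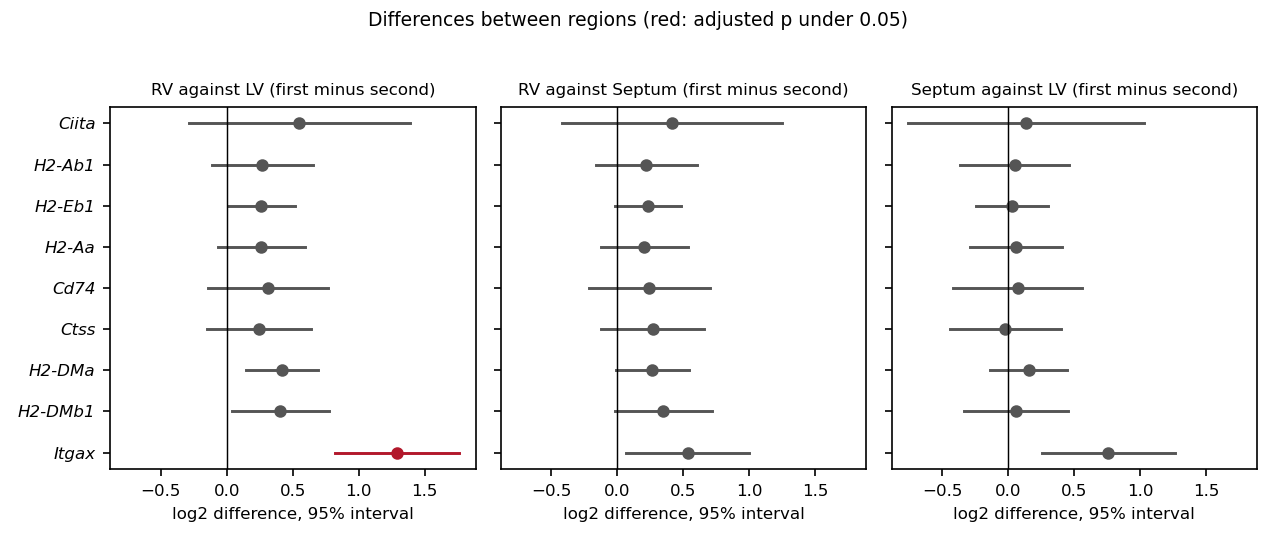
Differences in log2 level between regions with 95% intervals (horizontal axis) for the 9 genes (vertical axis), in the order RV against LV, RV against septum and septum against LV; red marks an adjusted p under 0.05. Itgax at 1.29 in the first panel is the only red point, and the intervals of H2-DMa, H2-DMb1 and H2-Eb1 in that panel also lie above 0.

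Itgax encodes CD11c, the integrin αX chain by which dendritic cells are commonly sorted and which some macrophages also carry. Its levels were -2.47, -2.83, -2.22 and -2.08 in the RV, -3.71, -3.74 and -3.63 in the LV, and -2.71, -2.69 and -3.40 in the septum. All RV arrays were above all LV arrays by 0.80 or more, and septum arrays 1 and 2 lay within the range of the RV. The RV exceeded the LV by 1.29 (SE 0.21, 95% interval 0.82 to 1.76, adjusted p = 0.0122). No fold is given, because the probe was well above background on 1 of 3 LV arrays, and LV arrays 2 and 3 lay below the lowest level that was well above background there (-3.33 and -3.51). On slide 1 alone this difference was 1.07 (adjusted p = 0.0311). On slide 2, with its single LV array, it was 1.48, and between the slides Itgax differed by 0.04 (SE 0.18, adjusted p = 0.870).

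The level of Itgax was close to the background. The probe was well above background on 4 of 4 RV arrays, 1 of 3 LV arrays and 2 of 3 septum arrays. With a normexp background correction in place of the software's the difference was 0.59 (SE 0.11, adjusted p = 0.0162). Without a filter on dim probes the adjusted p was 0.0573, without LV array 1 it was 0.0540 and without LV array 2 it was 0.0572. A one-way analysis of variance, the test the methods name, gave it an adjusted p of 0.0766 after Tukey's correction. Another probe of Itgax was well above background on none of the 10 arrays.

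Against the septum Itgax was 0.53 higher in the RV (SE 0.21, adjusted p = 0.289), and this difference was 0.05 on slide 1, 1.25 on slide 2 and 0.30 without septum array 3. The septum exceeded the LV by 0.76 (SE 0.22), with an unadjusted p of 0.00720 and an adjusted p of 1. Every septum array was above every LV array for Itgax, a separation shown by 3.55% of all probes tested. For RV against septum 0 of the 9 genes separated in this way, beside 5.86% of all probes.

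**Figure D3:**
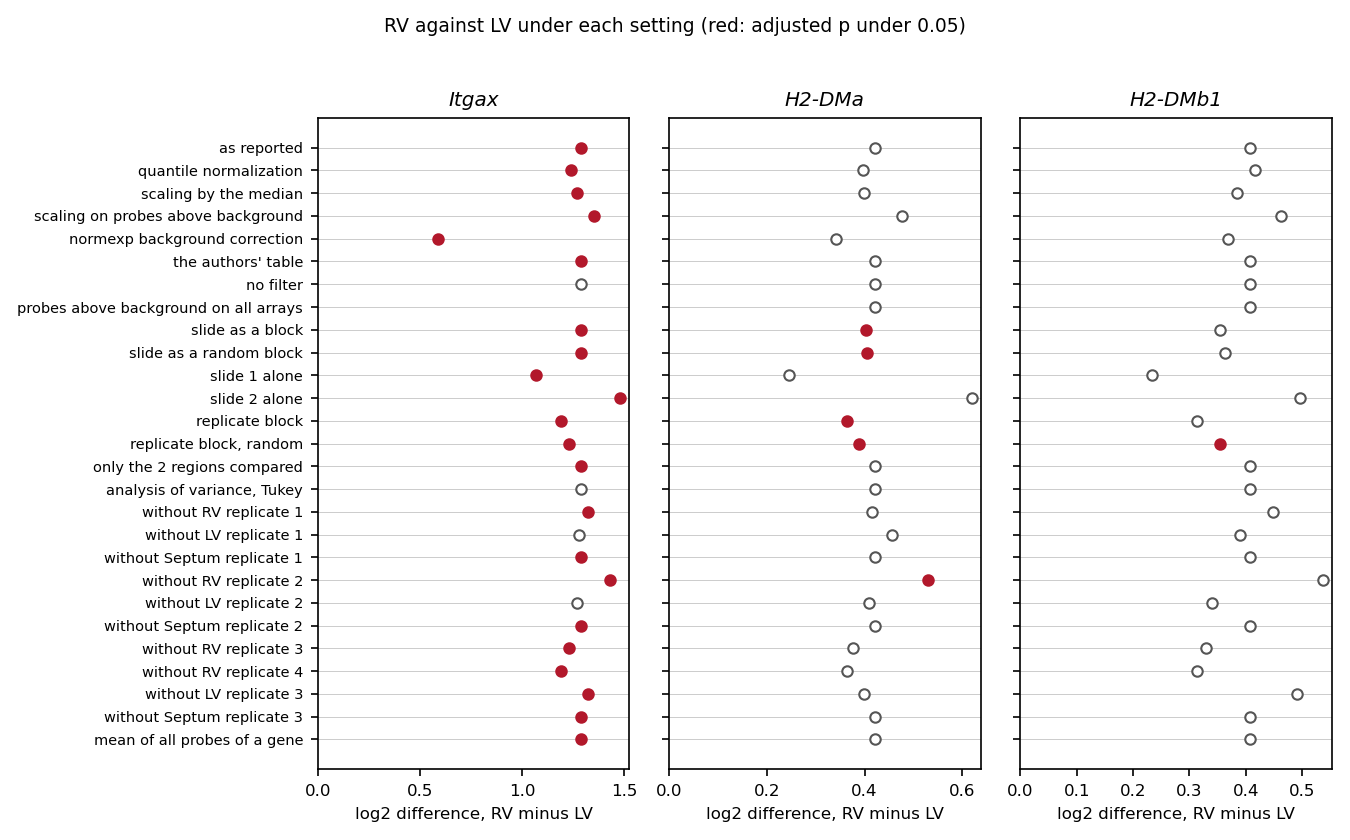
Difference in log2 level between RV and LV (horizontal axis) for Itgax, H2-DMa and H2-DMb1 under each setting of the processing and with each array left out in turn (vertical axis); red marks an adjusted p under 0.05. Itgax keeps a value of at least 1.07 except under normexp (0.59), and H2-DMa turns red under both kinds of block and without RV replicate 2.

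Arrays that carry the same number tended to deviate together, so the genes were also compared number by number. For number 3 such a joint deviation cannot be told from the shared slide. RV exceeded LV in 25 of the 27 pairs that 9 genes and 3 numbers give, and RV exceeded septum in 23 of 27. These pairs come from 3 sets of arrays, and several of the genes rose and fell together across them. The pairs are thus not independent, and the counts are a description. The same count was not made over all genes. In 7 genes all 3 numbers agreed for RV over LV, and the exceptions were number 2 of H2-Ab1 and of H2-Eb1, where the difference was 0.003 and 0.02 in favour of the LV. Number 1 and number 3 gave the larger differences, for example 0.37 and 0.60 for H2-DMa against 0.12 for number 2. Against the LV the difference was larger on slide 2 than on slide 1 in 8 genes, with a median over the 9 genes of 0.51 on slide 2 and 0.23 on slide 1. Against the septum it was larger on slide 2 in all 9 genes, with medians of 0.45 and 0.09. Slide 2 held a single LV and a single septum array, so these differences between slides have no replicate check.

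The 9 genes did not share a single pattern across the 10 arrays. This grouping was made after the values were seen, and arrays of a slide share their hybridisation, so the correlations are a description only. Ciita, H2-Ab1, H2-Eb1, Cd74, H2-DMb1 and H2-DMa correlated with each other at Pearson's r of 0.56 to 0.96 (15 pairs, median 0.90, 10 arrays). After each region's mean was subtracted, the same pairs had r of 0.33 to 0.95 with a median of 0.84. H2-Aa and Ctss correlated with each other at 0.795 and with H2-Ab1 at -0.01 and -0.07. Itgax correlated with H2-Ab1 at 0.62. Many other genes tested were as close to H2-Ab1. With H2-Ab1 itself counted, 27 genes had a correlation above that of Ciita, 96 above that of H2-DMb1 and 1348 above that of H2-DMa. Between the slides 6 of the 9 genes passed the test, beside the 43.8% of all probes, with 4 genes higher on slide 2 and 2 genes, H2-Aa and Ctss, lower.

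**Figure D4:**
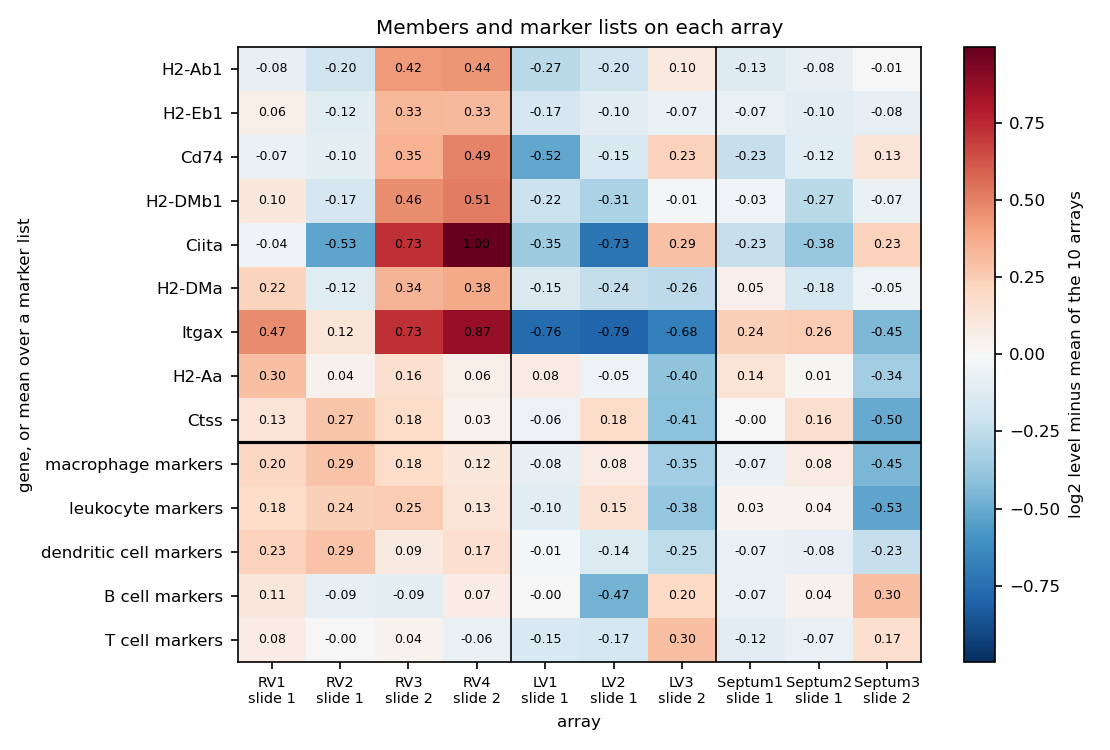
Level of each gene minus its mean over the 10 arrays (log2, colour and number in each cell), and below the line the mean of the same quantity over the tested genes of 5 marker lists; columns are arrays with their slide. RV arrays 3 and 4 are high for the upper 7 genes. H2-Aa, Ctss and the macrophage, leukocyte and dendritic cell lists are low on LV array 3 and septum array 3.

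The genes whose levels were most like those of H2-Ab1, apart from the 9, were Nfkbie and Tyk2 (r = 0.965 each over 10 arrays), followed by Bclaf3, Jag1, Fmnl2, Arap1, Wipf1, Cd83, Ptgir and Msl3l2 (0.952 to 0.960). Nfkbie encodes an inhibitor of NF-κB, Tyk2 a kinase of cytokine receptors and Cd83 a surface protein of mature dendritic cells. All 10 were higher on slide 2, by 0.19 to 0.40, and none differed between regions by the test. Among the 9 genes, Ciita had the highest correlation with H2-Ab1 (0.94), then H2-Eb1 (0.93).

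Beyond the 9 genes, 26 further genes of the class II pathway were listed, covering lysosomal proteases, the RFX and NF-Y factors of the X and Y boxes, the remaining class II genes and costimulators. Of the 22 that were tested, 2 passed against the LV, both higher in the RV, and 1 passed against the septum. Among all 14645 genes tested, 460 were called higher and 269 lower in the RV than in the LV. Against the septum these numbers were 246 and 149. Ifi30 encodes the lysosomal thiol reductase GILT, which opens disulphide bonds of antigens. It measured 0.05, 0.09, 0.57 and 0.39 in the RV, -0.37, -0.20 and -0.33 in the LV, and -0.13, -0.21 and -0.29 in the septum, with every RV array above all others. Its difference was 0.57 to the LV (SE 0.13, adjusted p = 0.0433) and 0.48 to the septum (SE 0.13, adjusted p = 0.112). The call against the LV was lost in 16 of 26 alternative settings, including each LV array left out in turn (adjusted p = 0.107 to 0.143).

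Ctsh encodes cathepsin H, a lysosomal aminopeptidase. It measured 5.12, 5.12, 4.89 and 4.91 in the RV, 4.48, 4.49 and 4.26 in the LV, and 4.57, 4.51 and 4.25 in the septum. The RV arrays were again apart from all others. Against the LV its difference was 0.60 (SE 0.11, adjusted p = 0.0201), and against the septum it was 0.56 (SE 0.11, adjusted p = 0.0363). These calls were lost in 9 and 13 of 26 alternative settings, in which the adjusted p did not go above 0.159. The other 2 tested probes of Ctsh did not pass, with 0.54 each against the LV (adjusted p = 0.0785 and 0.171) and 0.54 and 0.48 against the septum (adjusted p = 0.122 and 0.313). The median over the 22 genes was 0.06 against the LV and -0.02 against the septum, close to the -0.05 and -0.04 of all genes tested.

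Of 14 tested genes of the interferon gamma input, which induces Ciita, none passed against the LV or the septum, and their medians were -0.03 and -0.02. The largest differences between RV and LV were 0.37 for Socs1 (adjusted p = 0.323), a feedback inhibitor of the pathway, and -0.55 for the chemokine gene Cxcl10 (adjusted p = 0.522). Against the septum they were 0.41 for the GTPase gene Iigp1 (adjusted p = 0.517) and -0.31 for Gbp4 (adjusted p = 0.818), which also encodes a GTPase. Ifng itself was not well above background on any array. Of 16 tested genes of MHC class I presentation none passed, with medians of -0.05 and -0.06. There the extremes against the LV were 0.12 for Tapbp, the class I peptide-loading factor tapasin (adjusted p = 0.636), and -0.36 for Nlrc5, the class I counterpart of Ciita (adjusted p = 0.588). Against the septum they were 0.18 for H2-D1, a class I heavy chain (adjusted p = 0.488), and -0.67 for Nlrc5 (adjusted p = 0.378).

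**Figure D5:**
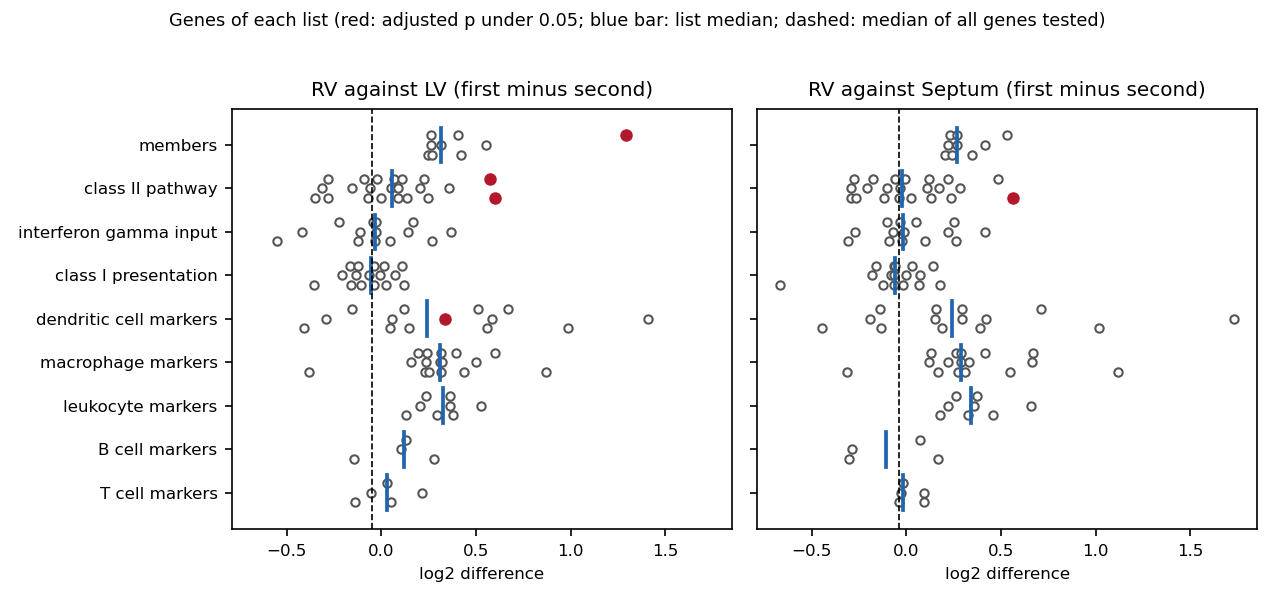
Difference in log2 level of every tested gene (points, horizontal axis) by list (vertical axis), RV against LV on the left and RV against septum on the right; red marks an adjusted p under 0.05, blue bars are list medians and the dashed line is the median of all genes tested. The 9 genes, called members on the axis, lie wholly to the right of 0, as do 15 of 16 macrophage and 8 of 8 leukocyte markers, while the interferon gamma and class I lists straddle it.

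Most macrophage and leukocyte markers also had higher means in the RV. Of 16 macrophage markers 15 were higher in the RV than in the LV (median 0.31) and 15 were higher than in the septum (median 0.29), and none passed the test. Of 8 pan-leukocyte markers all 8 were higher in both comparisons (medians 0.33 and 0.34), and none passed. The mean of the macrophage list, relative to all arrays, was 0.12 to 0.29 on RV arrays, -0.35 to 0.08 on LV arrays and -0.45 to 0.08 on septum arrays. That of the leukocyte list was 0.13 to 0.25, -0.38 to 0.15 and -0.53 to 0.04. The lowest arrays of both lists were LV array 3 and septum array 3, the arrays on which Ctss and H2-Aa were lowest. The dendritic cell list was also lowest on these arrays (-0.25 and -0.23). The part of these cells in the differences of the 9 genes was not tested.

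Of the defining macrophage markers, Csf1r, the receptor for the growth factor of macrophages, exceeded the LV by 0.39 (adjusted p = 0.0603) and the septum by 0.42 (adjusted p = 0.0717). The corresponding differences were 0.31 and 0.27 for Adgre1, a classical macrophage antigen, 0.31 and 0.29 for C1qa, and 0.60 and 0.67 for Lyve1, a marker of a resident subset. For Ptprc, the leukocyte antigen CD45, they were 0.21 and 0.18. A dimmer tested probe of Csf1r had nearly level means, -0.05 in the RV, -0.12 in the LV and -0.05 in the septum. With slide in the limma model, C1qa and Lyve1 were lower on slide 2, by -0.45 (adjusted p = 0.00252) and -0.63 (adjusted p = 0.00417). The slide differences of Adgre1, Ptprc and the brightest Csf1r probe were -0.14, 0.12 and -0.05, and these did not pass.

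Of 14 tested dendritic cell markers 1 passed against the LV, Naaa, a lysosomal amidase gene that is high in cross-presenting dendritic cells. Among all 14645 genes tested, 460 were called higher and 269 lower in this comparison. Naaa was 0.34 higher in the RV (SE 0.07, adjusted p = 0.0266) with no overlap of the arrays, and lost the call in 10 of 26 settings. Of the list 11 genes were higher than in the LV (-0.41 to 1.41) and 10 higher than in the septum (-0.45 to 1.73), with a median of 0.24 in both comparisons. Ccr9, Fscn1 and Mgl2 were lower in the RV in both comparisons, and Ccr7 was lower than in the septum. For Mgl2 this holds for the brightest probe. A dimmer tested probe went the other way, with means of -0.25 in the RV, -0.43 in the LV and -0.59 in the septum. Cd209a, Irf4 and Ccr9 entered the test through the RV alone, so their entry favoured a higher RV value and these counts are a description. Flt3, a receptor of dendritic cell precursors, exceeded the LV by 0.56 (adjusted p = 0.189) and Cd209a, a lectin of monocyte-derived dendritic cells, by 0.51 (adjusted p = 0.272). Cd209a lay near background and was well above it on 4 of 4 RV, 1 of 3 LV and 2 of 3 septum arrays. The factor gene Zbtb46, which marks classical dendritic cells, differed by 0.06 (SE 0.16, adjusted p = 0.887). Xcr1 and Clec9a, which mark the cross-presenting subset, were not well above background on any array.

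None of the 4 tested B cell and 5 tested T cell markers passed in either comparison. Cd79a differed between RV and LV by 0.28 (SE 0.36) and Cd3e by -0.05 (SE 0.24). The means of these lists were highest on LV array 3 (0.20 for B cells and 0.30 for T cells) and septum array 3 (0.30 and 0.17), where the macrophage list was lowest. For Cd3e the list uses its brightest probe, at 1.58 on LV array 3 and 1.64 on septum array 3, the highest of their regions. A dimmer tested probe of Cd3e was instead lowest of its region on these arrays (-2.02 and -2.27). Its means were -1.92 in the RV, -1.63 in the LV and -1.64 in the septum.

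Tissue other than muscle differed between the regions as well, and its part in the values of the 9 genes was not tested. The counts below stand beside those of all 14645 genes tested. Of these, 460 were called higher and 269 lower in the RV than in the LV, and 246 and 149 against the septum. Of 7 mesothelial markers 6 passed between RV and septum (Msln, Upk3b, Upk1b, Lrrn4, Krt19 and Krt8). Msln was 3.96 higher in the RV (adjusted p = 0.0247), and the other 5 were well above background on 1 or 2 of 3 septum arrays. Lrrn4 entered the test through the RV alone, so a higher RV value was built into its entry. Of 6 adipocyte markers 4 passed between RV and LV (Adipoq, Plin1, Cidec and Retn). The remaining Lep and Fabp4 went the other way, with RV means of -0.28 and 6.56. Their LV means were -0.14 and 6.80, and their septum means were -0.22 and 6.70. Cidec and Retn were 4.24 and 3.26 higher in the RV. Adipoq and Plin1 were not well above background on any LV array, so their LV level was set to the higher of the measured value and the lowest level well above background on each array. Against this bound Adipoq was at least 14.5-fold higher in the RV and Plin1 at least 4.34-fold. The bound itself was not tested, and limma on the measured levels gave each gene an adjusted p of 0.00377. Plin1 entered the test through the RV alone, so a higher RV value was built into its entry. Plin1, which was well above background on 1 of 3 septum arrays, and Cidec passed against the septum too. The fibroblast markers Pdgfra, Tcf21 and Dcn passed against the LV by 0.40 to 0.56, and Tcf21 also against the septum by 0.52. Of 7 endothelial markers 1 passed in both, Vwf, by 1.65 and 1.18, while 4 of 7 were higher in the RV and the medians were 0.01. All 7 cardiomyocyte markers, which define the labelled tissue, were well above background on all 10 arrays and none passed. The mean of their list relative to all arrays was within -0.07 to 0.15 on all arrays but 1, septum array 1, at -0.10. That of the 4 tested atrial markers ranged more widely, from -2.02 on RV array 4 to 3.10 on septum array 1. None of these 4 passed, and their median difference between RV and septum was -1.90.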

How the data were processed

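Total RNA of 10 samples was labelled with Cy3 and hybridised to Agilent arrays (1 colour). The authors made the deposited intensity values with Agilent Feature Extraction (version 11.5.1.1 in the submitters' processing notes), which subtracted the background, removed trends and set flags (other values, 0 or 1). A table of log2 values that the authors deposited, already scaled to each array's 75th percentile, served as an alternative. Region and replicate number were taken from the sample titles. The series text says that separate experiments used different individuals, but the labels do not tie a number to an animal, so p-values measure the spread between these samples, which may be partly technical. Slides were read from the array header and mark a shared slide only.

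Here, log2 of the processed signal was averaged over spots of a probe, without control spots and outlier spots (56 to 128 an array), and the 75th percentile of the array was subtracted. Of 56605 probes, 30234 (53.4%) reached the software's well-above-background flag throughout the arrays of 1 region or more and were tested with limma (version 3.58.1, R 4.3.3; 1 mean per region, all 10 arrays, Benjamini-Hochberg over the probes tested, threshold 0.05). Probes were named through unversioned RefSeq accessions (32994 probes, 58.3%). Coordinates are those of the RefSeq promoter table (GRCm38.p6), not of the array design. The files hold no mean spot signal, so the normexp alternative (offset 50) used the median. The fits were tested on simulated data. Same-numbered arrays of different regions had deviations from the region means correlated at 0.36 to 0.64. Of these arrays, 9 of 9 correlated best with their own number. LV array 3 and septum array 3 were the only arrays of their regions on their slide. The matches of number 3 therefore cannot be told from the slide. The numbers were used as pairs in the replicate blocks and the comparison by number, while the main fit had no block. The genes named were the 9 members, the called genes of fixed pathway and marker lists (or the extremes of a list without calls), set defining markers and the 10 genes most like H2-Ab1. The genes and lists were chosen with earlier results of these data known. A marker of the lists is not reported here.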

Additional observations from a re-analysis of the deposited data

How the results depend on the processing

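The number of the 9 genes that passed between RV and LV was 1 as reported. It was 0 without a filter, 0 with probes well above background on all arrays alone (which removes Itgax) and 0 by the one-way analysis of variance. It was 2 with slide as a fixed or as a random block, beside 5331 and 4689 of the 30234 probes. With the replicate block it was 2, beside 4512 probes, and with that block as a random term 3, beside 5795. The added genes were H2-DMa and H2-DMb1, and the calls over all probes rose in the same settings from 1167. Leaving out each array in turn gave 0 to 2. The number over the 3 regions was 1, beside 842 of all probes. It was 0 without a filter, 0 with probes well above background on all arrays, 0 with the replicate block and 0 by analysis of variance. With the random replicate block it was 2, beside 4500 of the 30234 probes, and with arrays left out it was 0 to 1. Against the septum and between septum and LV the count was 0 under each of the 26 settings tried, the replicate block included. Fits without LV array 1, 2 or 3 rest on 2 LV arrays. Over all probes, the 1167 calls between RV and LV became 269 without a filter and 5795 with the random replicate block. Which of these counts is nearer to the truth was not tested.

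Of 233 values of a single gene between RV and LV, 223 kept their direction and side of the threshold, 6 newly passed (H2-DMa and H2-DMb1) and 4 lost the call (Itgax). Between RV and septum, H2-Ab1 turned to -0.034 on slide 1 alone. Between septum and LV, where differences were near 0, signs turned in 22 of 233 values. Scaling by the median gave -0.0072 for H2-Aa, -0.015 for H2-Ab1, -0.035 for H2-Eb1 and -0.0057 for H2-DMb1. Slide 2 alone gave -0.105 for H2-Ab1, -0.013 for H2-Eb1, -0.054 for H2-DMb1, -0.101 for Cd74 and -0.065 for Ciita. Ctss turned to 0.017 under quantile normalization, 0.0014 with scaling on probes above background and 0.017 on slide 1 alone. With arrays left out, the septum to LV differences ran from -0.081 to 0.197 for H2-Aa, -0.024 to 0.160 for H2-Ab1, -0.0076 to 0.143 for H2-DMb1, -0.114 to 0.261 for Cd74, -0.096 to 0.414 for Ciita and -0.176 to 0.173 for Ctss. The cause of these turns was not tested. Itgax lay near background, and differences of 0.2 to 0.5 lay within the 95% intervals of most genes with 3 or 4 arrays a region.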
